A study of Mus musculus with 2 samples.

Results

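FTO and the AlkB homologues ALKBH1 to ALKBH8 are iron- and oxoglutarate-dependent dioxygenases, and their transcripts were examined in inguinal white fat, a depot under the skin of the groin. The members were the 9 genes Fto and Alkbh1 to Alkbh8, matched by Ensembl identifier to GENCODE M21, and all 9 of the 9 were found among the 37315 genes listed in both count files. The study held 2 libraries, 1 for each group. Both came from male C57BL/6 mice aged 23 weeks that had become obese on a high-fat diet, and they differed by treatment: one was labelled vehicle and the other Entacapone. Lean mice and mice on normal diet were not part of it, and no label or protocol read here states the dose, the time on the drug, the vehicle or how many mice a library stands for. Entacapone is a drug given in Parkinson disease, and has also been reported to inhibit the FTO protein. The counts show whether transcripts of the enzyme that the drug binds, and of its relatives, differed in level between these 2 libraries.

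Enzymes of this family use iron and oxoglutarate to oxidise a methyl group or other carbon on a nucleic acid or protein, releasing succinate and carbon dioxide. FTO and ALKBH5 remove the m6A mark from RNA, ALKBH2 and ALKBH3 repair alkylated bases, ALKBH1 and ALKBH8 act on transfer RNA, and ALKBH4 and ALKBH7 have roles outside nucleic acid repair. ALKBH8 is known as a hydroxylase and methyltransferase, so the name demethylase does not describe each member. In fat, FTO is known from the human obesity-associated variants in its introns and from its effects on the formation of adipocytes.

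The promoters of Fto, Alkbh5 and Alkbh6 are shown, since Fto encodes the protein that the drug inhibits and since Alkbh5 and Alkbh6 were the members whose levels differed beyond counting error. Each is the plus strand, 5′ to 3′, upstream of the RefSeq start on GRCm38.p6 (the same assembly as mm10). Capitals mark the letters GGGCGG (the core of a GC box, bound by SP1) or CCAAT (the CCAAT box, bound by NF-Y), read on either strand.
Fto, chr8:91313275-91313524: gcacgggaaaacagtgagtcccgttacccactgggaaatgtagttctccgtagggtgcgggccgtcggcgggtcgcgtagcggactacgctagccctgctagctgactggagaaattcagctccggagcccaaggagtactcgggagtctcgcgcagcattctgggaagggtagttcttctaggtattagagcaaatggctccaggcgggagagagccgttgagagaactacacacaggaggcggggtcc
Alkbh5, chr11:60537433-60537682: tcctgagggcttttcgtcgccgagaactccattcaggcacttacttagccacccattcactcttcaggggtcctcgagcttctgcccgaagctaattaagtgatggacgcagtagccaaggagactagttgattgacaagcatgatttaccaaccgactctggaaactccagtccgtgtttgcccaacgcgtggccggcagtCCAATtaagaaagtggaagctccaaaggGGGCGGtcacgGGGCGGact
Alkbh6, chr7:30308503-30308716: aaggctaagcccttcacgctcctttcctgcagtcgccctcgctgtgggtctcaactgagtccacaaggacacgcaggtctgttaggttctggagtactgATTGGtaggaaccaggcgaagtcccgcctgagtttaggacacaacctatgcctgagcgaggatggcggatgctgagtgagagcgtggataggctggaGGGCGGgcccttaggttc
The Alkbh6 stretch stops before its first annotated exon and is 214 bases long. The Alkbh5 stretch precedes the RefSeq start but lies inside the gene as GENCODE annotates it, in an intron of a transcript that starts further upstream at 60536381. In the 250 bases before the start, Alkbh5 and Alkbh6 both held GGGCGG and CCAAT, whereas Fto held neither. The promoters of 11.4% of 27025 genes held both sets of letters, and so did 23.7% of the 10333 promoters with at least 10 CG dinucleotides, the class that holds Alkbh5 and Alkbh6. Of the members that did not differ beyond counting error, Alkbh2 held GGGCGG and Alkbh7 held CCAAT. Alkbh5 and Alkbh6 were picked by their levels, and the motifs were added after the values were seen. A link between these letters and the levels was not tested.

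All 9 members matched a RefSeq promoter. They held 4 to 24 CG dinucleotides in 250 bases (median 14, against 6 over all 27025 promoters), and 8 of the 9 lay above that overall median. Alkbh8 was the exception with 4, and also had the lowest GC content at 44.8%. The Alkbh8 window, taken before the RefSeq start, reaches past the gene start that GENCODE annotates at 3335140. None held TATAAA, which 12.98% of all promoters held, and none held AAGATGGCG (YY1) or GCGCATGCG (NRF1), which 0.592% and 1.48% held. The letters CCGGAAG, read by ETS factors, were present in Alkbh1, Alkbh2, Alkbh3 and Alkbh4, which is 4 of the 9 against 7.07% of all promoters and 14.4% of the 10333 promoters with at least 10 CG dinucleotides. The search covered both strands, and no 2 of the 6 motifs contain each other. The stretches around both Alkbh1 sites overlap an annotated exon of that gene and are not shown. The sites outside annotated exons are shown on the strand of the gene, with CCGGAAG in capitals, because these members shared the letters.
Alkbh2, chr5:114128234-114128262: gggcgctgtgcCCGGAAGtcccgcgtagg
Alkbh3, chr2:94010826-94010854: cgggctacccaCCGGAAGcggaagcggtg
Alkbh4, chr5:136136054-136136082: gtccgttgcgaCCGGAAGgaagtagaacg
A match of letters is a description of the sequence and was not linked to binding by any measurement here.

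Fto starts 263 bp from the start of Rpgrip1l, a cilium gene that runs the other way, so the window printed for Fto lies between both genes. A protein-coding gene on the opposite strand starting within 1000 bp was found for 3 of the 9 members (Rpgrip1l for Fto, Slirp for Alkbh1 and Lrwd1 for Alkbh4), against 10.8% of 22028 protein-coding genes. Rpgrip1l had 80 vehicle and 49 entacapone reads (log2 ratio -0.60, -1.14 to -0.07), while Fto did not differ beyond counting error. Slirp (-0.05) and Lrwd1 (-0.12) were within counting error, as were Alkbh1 and Alkbh4.

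The vehicle library held 13620056 counted reads and the entacapone library 12979673. Each group is 1 library, so no difference has a replicate check, no p-value is given, and each interval below is an exact 95% interval that covers counting error only. Levels are in CPM (reads of a gene per 1000000 of the effective library size). A single read was worth 0.0724 CPM in the vehicle library and 0.0781 CPM in the entacapone library. The presence of fat was checked by 12 adipocyte genes, which cannot show the depot. All 12 were measured, with a summed level of 50333 CPM in the vehicle library and 56953 CPM in the entacapone library. Beyond counting error 8 of them were higher and 4 lower in the entacapone library, and 1 was higher by at least 2-fold. Markers of other cell types differed between the libraries too. Their counts are to be read against 20.2% higher and 21.1% lower of the 13361 genes that averaged 1 CPM or more. Of 12 macrophage genes 11 were lower beyond counting error in the entacapone library (summed 1515 against 771 CPM, vehicle first), as were 8 of 9 fibroblast genes (7590 against 4884 CPM) and 8 of 8 measured hepatocyte genes (343 against 81.0 CPM). Of the skeletal muscle genes 12 of 12 were higher (1300 against 2074 CPM), with 6 of 9 measured skin and mammary epithelium genes (20.5 against 59.1 CPM) and 5 of 5 measured red cell genes (283 against 467 CPM). Endothelial genes were split (3 higher and 2 lower of 7), and lymphocyte genes were mostly within counting error (1 higher and 1 lower of 9). The 1 marker without a read was Slc4a1, a red cell gene, in the vehicle library. The part of these cell types in the members' values was not tested. In bulk tissue, fewer cells of a type and less RNA per cell cannot be told apart.

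All 9 members were detected in both libraries, with 67 to 1169 reads each, and all 9 passed the limit of a mean of 1 CPM. Alkbh6 and Alkbh5 were higher in the entacapone library beyond counting error, Fto and 6 others were within it, and none was lower beyond it. No member differed 2-fold. These 2 of 9 (22.2%) are to be read against 41.3% of the 13361 genes that averaged 1 CPM or more and whose interval excluded a ratio of 1. Of those genes 20.2% were higher and 21.1% lower, and 5.16% reached 2-fold. Among the 8683 genes whose mean level lay between the lowest and the highest member (5.08 to 86.1 CPM), 38.7% were beyond counting error, 18.2% as higher. The share of members called is thus no larger than that of genes in general.

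**Figure D1:**
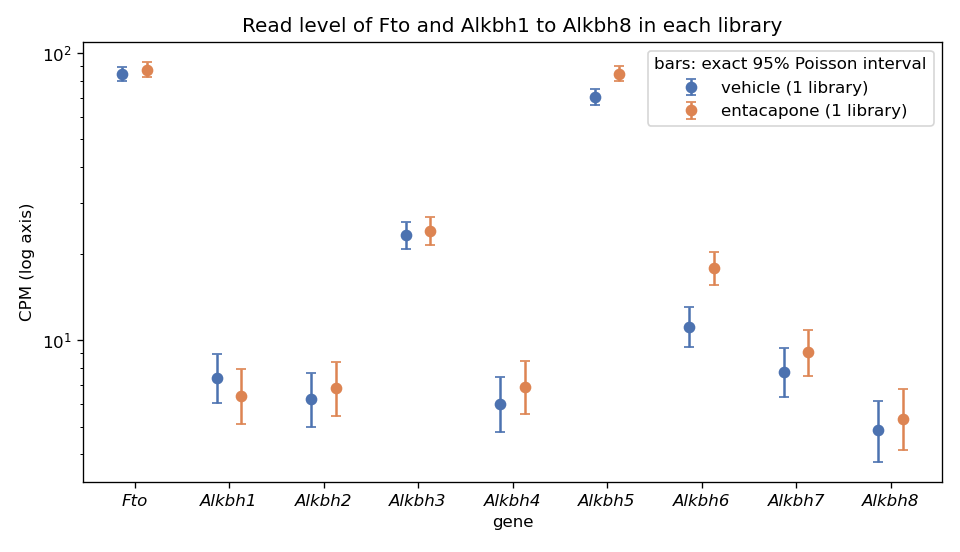
Level of each member in CPM (log axis) in the vehicle library (blue) and the entacapone library (orange); each point is 1 library and each bar its exact 95% Poisson interval. The bars of Alkbh5 and of Alkbh6 do not overlap between the libraries, while those of the other 7 members do.

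Fto (ENSMUSG00000055932, chromosome 8, 91313525 to 91668439, plus strand) encodes the m6A demethylase that entacapone inhibits. It is the longest gene of the family, spanning 355 kb, and had 1169 vehicle reads and 1120 entacapone reads. Its level was 84.6 CPM (79.8 to 89.6) with vehicle and 87.5 CPM (82.5 to 92.8) with entacapone. The bars of both libraries overlap from 82.5 to 89.6 CPM, and the ratio was 1.03-fold with an interval of 0.952 to 1.12. A difference of more than about 1.12-fold upwards, or below 0.952-fold, therefore lies outside the counting error of these libraries, although not outside differences between mice, which were not measured. Its exons overlap the opposite-strand genes Gm45427 and 4831440D22Rik over 304 and 144 bp (2.33% and 1.11% of its exon length), neither of which was analysed here. Of all genes compared, 86.7% differed by at least as much as Fto. The 4 genes nearest to Fto in level over the 2 libraries were Trrap, Washc2, Birc6 and Fbxl20. With 2 libraries such nearness says only that they had about the same reads in both.

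Alkbh5 (ENSMUSG00000042650, chromosome 11, 60536381 to 60558512, plus strand) encodes the other known m6A demethylase, which acts in the nucleus. It had 970 vehicle reads (70.2 CPM, 65.9 to 74.8) and 1083 entacapone reads (84.6 CPM, 79.7 to 89.8). The entacapone library was the higher one, by 1.21-fold (1.10 to 1.32), and the intervals of the levels did not overlap. Differences of this size were common, since 38.9% of all genes compared differed at least as much. Within a library, which needs no scaling between libraries, there were 1.21 Fto reads for each Alkbh5 read (1.11 to 1.31) in the vehicle and 1.03 (0.9504 to 1.13) in the entacapone library. The odds of an Alkbh5 over an Fto read were 1.17 times higher in the entacapone library (1.03 to 1.32). The balance between both demethylase transcripts thus differed slightly between the libraries, in the direction of Alkbh5.

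Alkbh6 (ENSMUSG00000042831, chromosome 7, 30308717 to 30314304, plus strand) is among the least characterised members of the family. It showed the largest difference of the 9, with 154 vehicle reads (11.1 CPM, 9.46 to 13.1) and 228 entacapone reads (17.8 CPM, 15.6 to 20.3). The entacapone library was 1.60-fold higher (1.30 to 1.97), a log2 ratio of 0.68 (0.37 to 0.98). It was the 1 member past a limit of 1.5-fold, which 12.1% of all genes compared passed. Exons of Alkbh6 contain the small RNA gene Gm24757 on the same strand, over 371 bp or 11.9% of its exon length, and Gm24757 had 0 reads in both libraries. Reads in that stretch lie in both genes. If such shared reads were discarded, a count of 0 sets no limit on the level of Gm24757. If they were counted, it allows up to 0.217 CPM for vehicle and 0.234 CPM for entacapone. The library kit does not mark the strand, but no annotated gene overlapped the exons of Alkbh6 or Alkbh5 on the opposite strand.

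**Figure D2:**
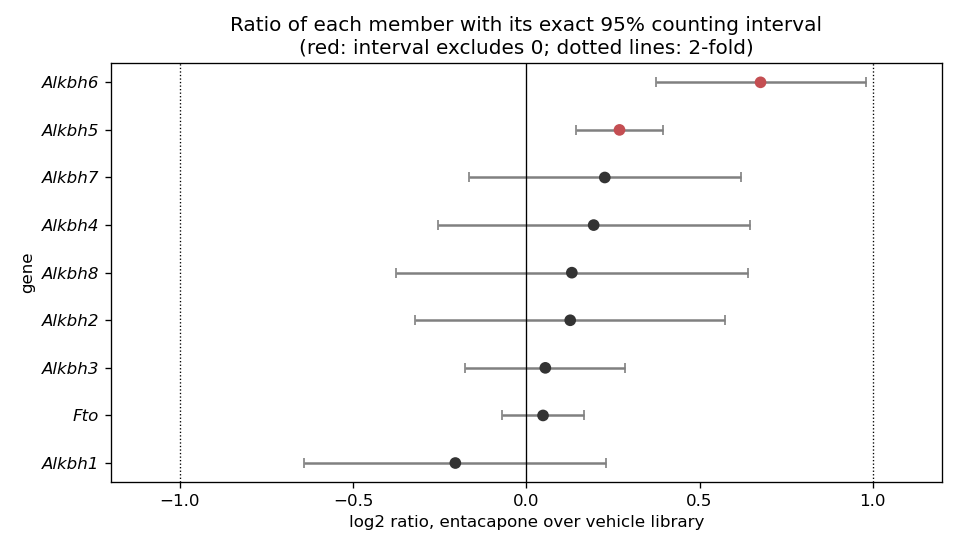
The log2 ratio of the entacapone over the vehicle library for each member (points), with exact 95% counting intervals (bars), the line of equal level at 0 and dotted lines at 2-fold. Alkbh6 (0.68) and Alkbh5 (0.27), in red, are the members whose intervals exclude 0, and Fto has the narrowest interval.

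The repair enzymes Alkbh2 and Alkbh3 were within counting error. Alkbh3 (ENSMUSG00000040174, chromosome 2, 93980550 to 94010807, minus strand) repairs single-stranded DNA and RNA and works with the ASCC complex. It had 320 vehicle reads (23.2 CPM) and 308 entacapone reads (24.1 CPM), a ratio of 1.04-fold (0.885 to 1.22). Alkbh2 (ENSMUSG00000044339, chromosome 5, 114123926 to 114128218, minus strand) repairs double-stranded DNA. It had 86 and 87 reads (6.23 CPM in the vehicle, 6.80 CPM in the entacapone library), a ratio of 1.09-fold (0.801 to 1.49). Alkbh3 exons touch Gm27027 on the same strand, which was not analysed here, and the antisense gene Alkbh3os1, which had 4 vehicle and 3 entacapone reads. Alkbh2 shares 329 bp, 29.5% of its exon length, with Usp30 on the opposite strand, which had 442 and 413 reads. Reads in that stretch cannot be told apart by strand, and no source used here says whether they were counted.

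The transfer RNA enzymes Alkbh1 and Alkbh8 were also within counting error. Alkbh1 (ENSMUSG00000079036, chromosome 12, 87425840 to 87444017, minus strand) demethylates transfer RNA and modifies a mitochondrial one. It was the 1 member with the lower level in the entacapone library, at 102 vehicle reads (7.38 CPM) and 82 entacapone reads (6.41 CPM), a ratio of 0.868 (0.641 to 1.17). Alkbh8 (ENSMUSG00000025899, chromosome 9, 3335140 to 3391154, plus strand) completes a modified uridine at the wobble position of transfer RNA. It had the fewest reads, 67 and 68 (4.85 and 5.31 CPM), and the widest interval (1.10-fold, 0.770 to 1.56). At this depth a difference of Alkbh8 smaller than about 1.42-fold was not detectable, against 1.09-fold for Fto. Alkbh1 overlaps the RNA-binding protein gene Slirp over 122 bp (1.86% of its exon length), and Slirp had 153 and 137 reads.

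The members with other roles gave a like picture. Alkbh4 (ENSMUSG00000039754, chromosome 5, 136136146 to 136141615, plus strand), which encodes a demethylase of actin, had 83 and 88 reads (6.01 CPM in the vehicle, 6.88 CPM in the entacapone library; 1.14-fold, 0.838 to 1.56). Alkbh7 (ENSMUSG00000002661, chromosome 17, 56997339 to 56999322, plus strand) encodes a mitochondrial protein with roles in fat metabolism and programmed necrosis. It had 107 and 116 reads (7.75 and 9.06 CPM; 1.17-fold, 0.892 to 1.54). Both ratios lay above 1, and both intervals held 1.

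Of the 9 ratios, 8 lay above 1 and 1 below, or 6 and 3 when the libraries were scaled to the adipocyte genes, where Fto and Alkbh3 were just under 1. The reads of all 9 members summed to 3058 in the vehicle (221 CPM) and 3180 in the entacapone library (248 CPM), 1.12-fold higher in the latter (1.07 to 1.18; 1.05-fold, 1.001 to 1.11, with the adipocyte scaling). The median log2 ratio of the 9, with 0.5 CPM added to each level, was 0.12, against 0.0040 over all genes compared. Shares of the family's reads do not depend on the scaling between libraries. Fto made up 38.2% of these reads in the vehicle (exact binomial interval 36.5 to 40.0%) and 35.2% in the entacapone library (33.6 to 36.9%), an odds ratio of 0.879 (0.791 to 0.975). Alkbh6 made up 5.04% (4.29 to 5.87%) and 7.17% (6.30 to 8.12%), an odds ratio of 1.46 (1.17 to 1.81). The share of Alkbh5 was 31.7% and 34.1%, with an odds ratio of 1.11 whose interval just held 1 (0.999 to 1.24). The lower share of Fto reads stands beside a level of Fto that was within counting error.

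**Figure D3:**
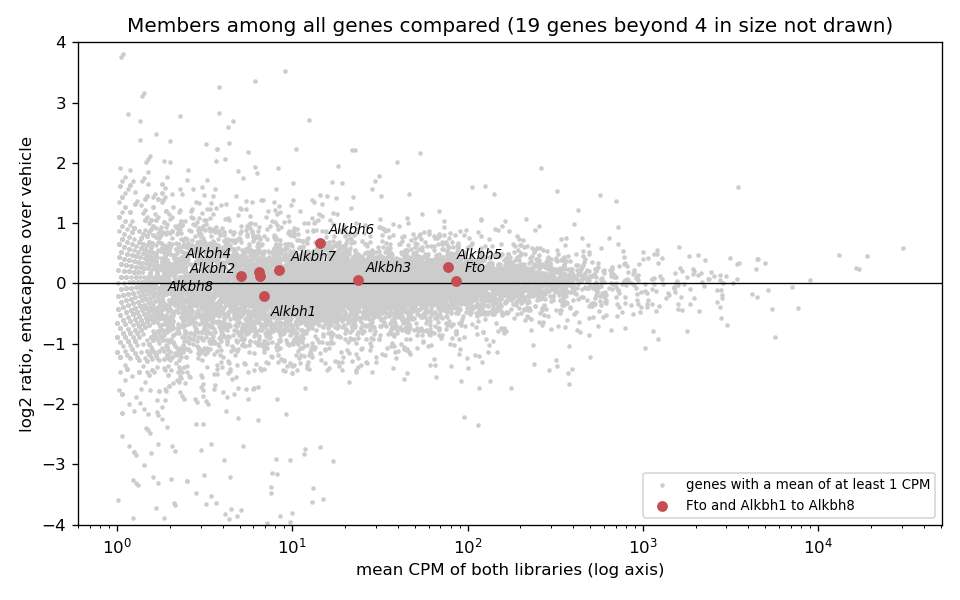
Mean CPM of both libraries (log axis) against the log2 ratio of the entacapone over the vehicle library for genes that averaged 1 CPM or more (grey) and the 9 members (red). The members lie within the grey cloud, and Alkbh6 has the highest ratio of the 9.

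Levels of different members were compared per kb of exon, since longer transcripts give more reads. On the scale of CPM per kb of all annotated exons, Alkbh5 was highest in the vehicle library (11.7), followed by Alkbh7 (7.53), Alkbh3 (7.33), Fto (6.49), Alkbh2 (5.58), Alkbh6 (3.57), Alkbh4 (2.84), Alkbh1 (1.12) and Alkbh8 (0.555). On this scale the order was the same in the entacapone library. In the vehicle library Alkbh5 exceeded Alkbh7 by 1.56-fold (1.28 to 1.92), whereas the neighbours Alkbh7 and Alkbh3, Alkbh3 and Fto, Fto and Alkbh2, and Alkbh6 and Alkbh4 did not differ beyond counting error. In the entacapone library Alkbh2 and Alkbh6 also did not (1.07-fold, 0.825 to 1.37), and Alkbh6 exceeded Alkbh4 (1.76-fold, 1.37 to 2.27). Alkbh1 and Alkbh8 were the lowest in each library.

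The place of Fto, and of other members, rested on the length used. By the longest transcript Alkbh5 ranked 3 in the vehicle and 4 in the entacapone library, while Alkbh6 ranked 4 and 3. By that length Alkbh5 exceeded Alkbh6 in the vehicle library (1.30-fold, 1.09 to 1.55). In the entacapone library Alkbh6 and Alkbh5 did not differ beyond counting error (1.02-fold, 0.882 to 1.18). The annotated exons of Fto add up to 13.03 kb, but its longest transcript is 4.71 kb and its coding transcripts average 2.92 kb. With the longest transcript, Fto was highest at 18.0 CPM per kb in the vehicle library, not beyond counting error of Alkbh3 (16.6), and with the mean coding transcript it was highest at 29.03 CPM per kb. Alkbh8 was lowest under all 3 lengths in both libraries.

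**Figure D4:**
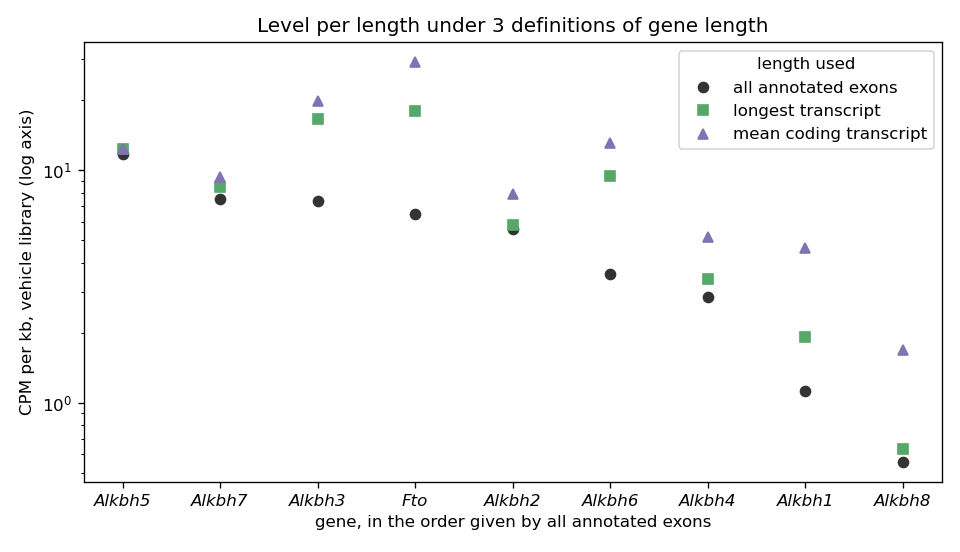
CPM per kb in the vehicle library (log axis) for each member under 3 definitions of its length, with genes in the order given by all annotated exons. Fto moves from 6.49 to 29.03 with the length used, while Alkbh5 stays near 12.

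Genes that work with or beside the family were counted in 7 lists, of which 150 of 151 genes matched. Counts beyond counting error are to be read against 20.2% of all genes compared as higher and 21.1% as lower. Other scalings moved the counts of all 13361 genes as well. DESeq2 size factors gave 2464 higher and 3005 lower, and total counts 2185 and 3273. The adipocyte scaling gave 1643 higher and 3954 lower. No gene of these lists that averaged 1 CPM or more differed 2-fold, except that 1 of the FTO substrates did with the adipocyte scaling. Below that limit, the DNA demethylase gene Tet1 had 8 vehicle and 0 entacapone reads. Among 19 measured m6A writers and readers, 3 exceeded counting error upwards and 2 downwards (median log2 ratio 0.018). The direction of these counts turned with the scaling, to 3 higher and 5 lower with DESeq2 size factors or total counts and to 3 and 6 with the adipocyte scaling. The reader Igf2bp2 (0.79, 0.38 to 1.21) and the methyltransferase Mettl16 (0.35, 0.16 to 0.54) were highest, and Ythdc2 (-0.44, -0.88 to 0.0047) and Mettl5 (-0.26, -0.71 to 0.19) lowest. Of 22 partners and transfer RNA modification enzymes, 4 were higher and 2 lower (median -0.049), against 1 and 2 with total counts and 0 and 6 with the adipocyte scaling. There Trmt61b (0.47, -0.05 to 1.003) and Ctu2 (0.27, 0.0076 to 0.53) were highest, and Ctu1 (-0.35, -0.76 to 0.07) and Trmt10c (-0.33, -0.64 to -0.03) lowest. Ctu1 and Ctu2 form 1 complex that thiolates the wobble uridine on which ALKBH8 also acts.

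Repair of alkylation damage had 1 higher and 1 lower of 13 genes (median -0.038). The polymerase Polb (0.29, 0.03 to 0.54) and the direct repair gene Mgmt (0.14, -0.15 to 0.43) were highest, and the endonuclease Apex1 (-0.40, -0.75 to -0.05) and Rpa3 (-0.26, -0.81 to 0.29) lowest.

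The other dioxygenases that share the family's chemistry were divided too. Of 21 measured TET and JmjC demethylases, which act on DNA and histones, 4 were higher and 1 lower (median 0.037). Kdm7a (0.39, 0.18 to 0.60) and Phf2 (0.39, 0.24 to 0.53) were highest, and the Y-linked Kdm5d (-0.35, -0.63 to -0.07) and Kdm8 (-0.31, -0.89 to 0.26) lowest. Of 26 measured protein and metabolite hydroxylases 4 were higher and 5 lower (median 0.087). Phyhd1 (0.54, -0.23 to 1.33) and Asph (0.40, 0.34 to 0.47), an aspartyl hydroxylase, were highest. The collagen prolyl hydroxylases P3h1 (-0.56, -0.70 to -0.41) and P3h3 (-0.40, -0.64 to -0.16) were lowest. Others of that kind did not go with them, since P4ha2 was higher (0.21, 0.03 to 0.38) and P3h2 and P4ha1 were within counting error. Fibroblast genes were lower in the same library (8 of 9), and their part in these values was not tested.

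Genes that supply or consume oxoglutarate, succinate, fumarate and iron were more often higher. Of 25 measured, 15 were higher and 2 lower beyond counting error, against 20.2% and 21.1% of all genes compared, with a median log2 ratio of 0.14. The oxoglutarate dehydrogenase subunit Ogdh stood at 383 CPM with vehicle and 527 CPM with entacapone (0.46, 0.41 to 0.51), and the iron chaperone Pcbp2 was next (0.38, 0.28 to 0.48). Idh1, the cytosolic enzyme that makes oxoglutarate, went the other way at 226 against 159 CPM (-0.51, -0.59 to -0.43), with the mitochondrial dicarboxylate carrier Slc25a10 (-0.30, -0.36 to -0.25). Scaled to the adipocyte genes, the list's counts were 8 higher and 4 lower, against 1643 and 3954 of all 13361 genes compared. Many of these genes have high counts, at which small differences in either direction pass, and the share among genes of like level was not computed. Skeletal muscle genes were higher in the same library, with 12 of 12 beyond counting error. The part of muscle RNA in these values was not tested.

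Transcripts studied as FTO substrates in fat and liver were lower in 7 and higher in 4 of 15 (median -0.18), against 21.1% and 20.2% of all genes compared. With the adipocyte scaling 9 were lower and 3 higher, against 3954 and 1643 of all 13361 genes compared. Some of these transcripts have high counts, at which small differences pass, and the share among genes of like level was not computed. Macrophage genes (11 of 12) and fibroblast genes (8 of 9) were lower in the same library, and their part in these values was not tested. The cyclins Ccna2 (-0.91, -1.55 to -0.30) and Ccnd1 (-0.59, -0.89 to -0.28), which drive cell division, were lowest. The coactivator Ppargc1a (0.84, 0.14 to 1.55) and the cytokine signalling inhibitor Socs3 (0.49, 0.21 to 0.78) were highest. Foxo1, the insulin-regulated transcription factor, was within counting error with 1352 and 1320 reads.

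**Figure D5:**
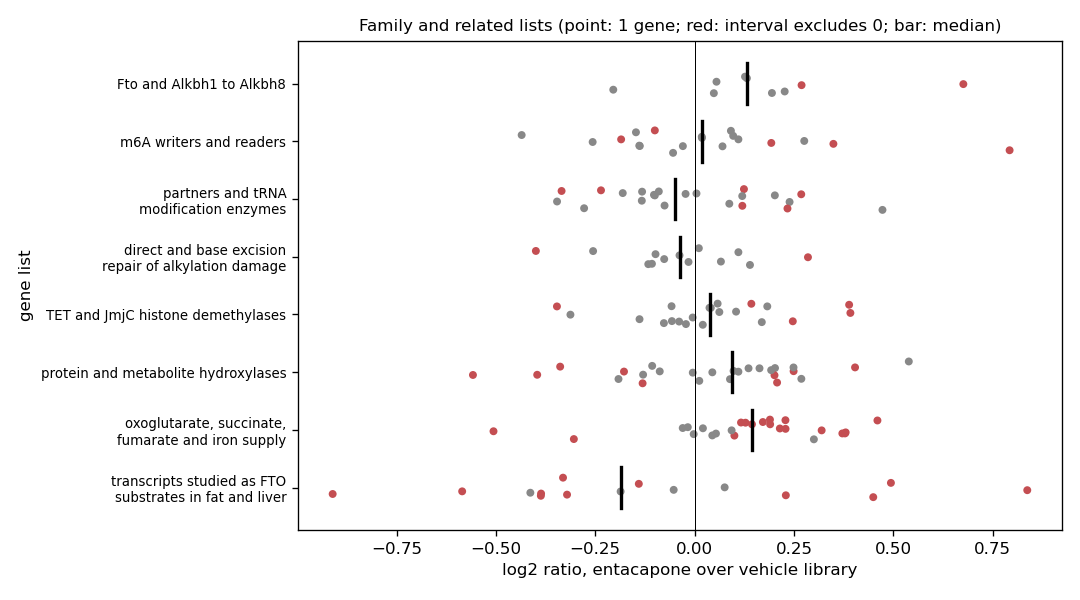
The log2 ratio of the entacapone over the vehicle library for the 9 members and for each measured gene of the 7 related lists (points; red where the 95% counting interval excludes 0), with the median of the drawn ratios as a bar. The list on oxoglutarate, succinate, fumarate and iron holds 15 genes that are higher beyond counting error, and every gene drawn lies within 2-fold.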

How the data were processed

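Poly(A) RNA of 2 libraries, 1 per group, was sequenced on an Illumina HiSeq instrument with a TruSeq kit that does not mark the strand, per the labels' protocols. Each file deposited by the authors holds raw counts of reads, listed by Ensembl gene. Per the submitters' processing notes, TopHat2 2.1.1, HTSeq 0.6.0 and mm10 were used. No source used here states the annotation release or the counting mode. If reads shared by overlapping genes were discarded, levels of Alkbh2 and Alkbh6, which share the most exon length, would be understated.

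Genes were matched to GENCODE M21 (GRCm38; 35533 of 37315). CPM were computed with TMM effective library sizes (edgeR 4.0.16). Ratios carry exact 95% Clopper-Pearson intervals, taken from the share of its reads that fell in the entacapone library. Reads carry no molecular identifiers, so these cover counting error only. Genes averaging 1 CPM or more were compared (13361), and none was tested. A count of 0 was given a floor of 3 reads. List medians used a pseudocount of 0.5 CPM. The script was tested on simulated data.

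The members and lists were chosen with earlier results of these data known, so no list is independent support. Named genes were the members, Foxo1, the 2 highest and 2 lowest measured genes of each list, genes overlapping a member's exons, and the 4 genes nearest to Fto. The promoter motifs and the neighbours of members (Rpgrip1l, Slirp, Lrwd1) were added after the values were seen. So were the collagen prolyl hydroxylases P4ha1, P4ha2 and P3h2. Jmjd7 matched no gene, and 1 gene that the rule took is not reported here. Promoters came from RefSeq (GRCm38.p6), with the most upstream start of each gene. As alternatives, levels were scaled by DESeq2 1.42.0 size factors, by total counts, by the upper quartile, to the adipocyte genes, or by TMM without mitochondrial and other-tissue genes; other limits and gene lengths were also tried.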

Additional observations from a re-analysis of the deposited data

How the results depend on the processing

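Under all 5 other scalings Alkbh5 (log2 ratio 0.18 to 0.28) and Alkbh6 (0.58 to 0.69) stayed higher beyond counting error and the other 7 members within it, and a 99% interval also gave 2 members. With the median of the adipocyte genes set to 0, Fto and Alkbh3 changed sign within counting error (both -0.04). That scaling shifted all ratios by -0.092 and moved the share of higher genes among all called from 49.0% to 29.4%. Where the direction of a list's counts reversed with the scaling, the counts stand in the text above. Other lists moved too. With the adipocyte scaling the repair list had 0 higher and 2 lower, and the hydroxylases 2 higher and 7 lower. No member was past 2-fold, and 1 was with a limit of 1.5-fold. Per length, Fto ranked 4 in both libraries by all annotated exons and 1 by the longest or by the mean coding transcript. Alkbh5 ranked 1 by all annotated exons and 3 or 4 by the other lengths. The list medians moved by at most 0.1 under the alternatives run, but most of them were themselves smaller than that. With the adipocyte scaling the m6A median went from 0.018 to -0.074 and the TET and JmjC median from 0.037 to -0.054. The hydroxylase median went from 0.087 to 0.00097 and that of the oxoglutarate list from 0.14 to 0.052. The median of the FTO substrates went from -0.18 to -0.27. No paired analysis was possible because each group held 1 library. Limits are that single library per group, the differing cell type markers, whose part was not tested, and depth for the members with few reads.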
